A study of Homo sapiens with 16 samples.

Results

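A set of 10 genes of the Notch pathway was followed in cultured colorectal cancer cells: the receptors NOTCH1, NOTCH2 and NOTCH3, the ligands JAG1, JAG2 and DLL4, and the targets HES1, HES4, HEY1 and NRARP. They were chosen by name for their place in the pathway, with earlier results of these data known. Each symbol matched a single Ensembl identifier, which made 10 of the 54127 genes listed in the count files. The 16 libraries came from HT55 and SW948, both established lines, grown attached to plastic in medium with foetal bovine serum and antibiotics. Cells received itraconazole, an azole antifungal that blocks a step of sterol synthesis, at 5 µM, or its solvent DMSO as the control, and RNA was taken on day 6. There were 4 libraries in each of the 4 groups, HT55 DMSO, HT55 itraconazole, SW948 DMSO and SW948 itraconazole. Each line is a single culture model of tumour epithelium with no stroma, and the RNA was sequenced in bulk, so that fewer cells expressing a gene and less RNA per cell cannot be told apart.

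Notch receptors are read out by contact between neighbouring cells. A Jagged or Delta-like ligand on one cell pulls on the receptor of the next, which is then cleaved, first by an ADAM protease and next by the gamma-secretase complex, and the released intracellular part joins the DNA-binding protein RBPJ and a Mastermind-like coactivator in the nucleus. Genes of the HES and HEY families, which encode transcriptional repressors, and NRARP, a small inhibitor of the nuclear complex, are the classic readouts. In the intestine the pathway is known for keeping progenitor cells dividing and for holding back the secretory fate.

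Gene counts per library ran from 8269406 to 11110814. All 8 markers of colorectal epithelium were detected in every group, with summed levels between 5731 and 10455 CPM (counts per 1000000 gene counts, scaled to library sizes corrected by the TMM method). The 4 endothelial markers that could be matched summed to between 0 and 7 counts per library, and the leukocyte genes PTPRC and CD3E had at most 1 count in any library. The lysozyme gene LYZ, listed with the leukocyte markers, stood at 318 ± 25.9 CPM in SW948 DMSO and 109 ± 11.8 CPM in SW948 itraconazole (SD, n = 4) and at 0.852 ± 0.350 CPM in HT55 DMSO, and COL1A1, listed with the fibroblast markers, had 75 to 105 counts per library in SW948 itraconazole against 29 to 44 in SW948 DMSO, while COL3A1 had none. Over the 5 genes of each list, the fibroblast and mural markers summed to 12 to 17, 29 to 35, 33 to 54 and 79 to 107 counts per library in HT55 DMSO, HT55 itraconazole, SW948 DMSO and SW948 itraconazole, and the leukocyte markers to 12 to 15, 18 to 40, 3287 to 4054 and 750 to 1168 counts, nearly all LYZ in SW948. The part of these markers in the results was not tested. Replicate 3 of HT55 itraconazole stood apart. Over 12133 genes it lay at 61.8% of the distance from the control mean along the difference shown by the other 3 treated libraries, against 91.5% to 113% for the other HT55 libraries placed in the same way, so values without it are given where they matter. The labels give no sequencing batch, and the 4 libraries of a group are biological replicates by the study's methods, which do not say how the cultures were separated.

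The first question was how the genes answered itraconazole in each line. In HT55, 7 of the 10 genes changed (edgeR adjusted p under 0.05): NOTCH2, NOTCH3, JAG1, HES1 and HES4 rose, and JAG2 and DLL4 fell. Of all 12133 genes tested in HT55, 54.0% changed (27.5% upwards and 26.5% downwards), and the 7 of 10 are to be read against that share. In SW948, HEY1 and DLL4 were too low for the test, and all 8 genes that were tested changed, beside 80.2% of the 12505 genes tested (38.9% that rose and 41.3% that fell). NOTCH1, NOTCH2, NOTCH3, JAG1, JAG2, HES1 and HES4 rose there and NRARP fell, although on plain library totals those of NOTCH2, JAG2 and HES1 were not past the threshold and NOTCH2 was at -0.0013. The median log2 fold change was 0.24 over the 10 genes in HT55 and 0.86 over the 8 tested in SW948, against -0.02 over all genes tested in either line.

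**Figure D1:**
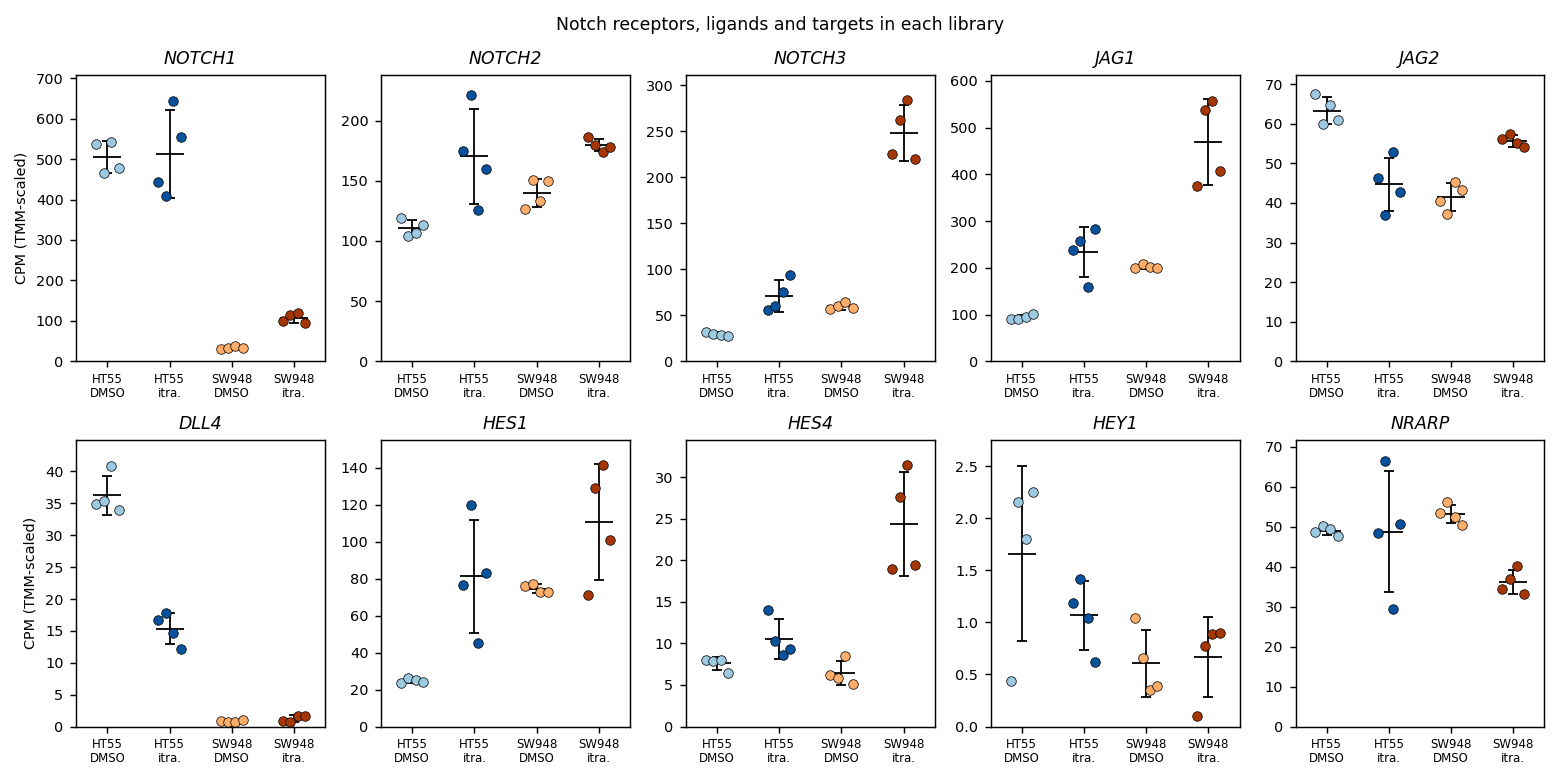
CPM (TMM-scaled) of each gene on the y axis in the 4 groups on the x axis, with 1 point per library, a horizontal line at the mean and an error bar of 1 SD (n = 4). NOTCH1 and DLL4 are high in HT55 and low in SW948, JAG1 and NOTCH3 are higher in treated than in control libraries of both lines, and the HEY1 axis ends below 3 CPM.

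Among the receptors, NOTCH1 (chr9:139388885-139440500, minus strand, protein coding, GRCh37) showed the widest difference between the lines. In HT55 DMSO its level was 538, 465, 542 and 477 CPM, and in HT55 itraconazole it was 443, 409, 645 and 554 CPM. The treated HT55 libraries lay both below and above the controls, and the log2 fold change was 0.02 ± 0.13 (SE, adjusted p = 0.923 in edgeR). It was -0.10 without treated replicate 3, the highest of the treated libraries (adjusted p = 0.360), and -0.14 on plain library totals (adjusted p = 0.454). In SW948 DMSO the level of NOTCH1 was only 29.4, 32.6, 37.9 and 33.2 CPM, and in SW948 itraconazole it was 99.2, 115, 118 and 94.8 CPM. Every treated SW948 library was above every control, a log2 fold change of 1.65 ± 0.093 (SE, adjusted p = 1.78e-09 in edgeR). Even so, the treated SW948 libraries stayed far below both HT55 groups.

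NOTCH3 (chr19:15269849-15311806, minus strand, protein coding), a receptor also known from vascular mural cells, rose in both lines. Its level was 32.1, 29.7, 28.2 and 27.96 CPM in HT55 DMSO and 55.6, 59.6, 74.8 and 93.5 CPM in HT55 itraconazole. The groups did not overlap, and the log2 fold change was 1.26 ± 0.15 (SE, adjusted p = 9.11e-05 in edgeR). In SW948 the controls had 56.3, 60.3, 64.1 and 57.5 CPM and the treated libraries 226, 262, 284 and 220.1 CPM. The log2 fold change of NOTCH3 in SW948 was 2.03 ± 0.088 (SE, adjusted p = 1.70e-10 in edgeR), which made it the steepest change among the 10 genes in that line. The mural marker PDGFRB had 1 to 25 counts per library, a range over all 4 groups together. Summed over the fibroblast and mural list, counts per library were 12 to 17 in HT55 DMSO and 29 to 35 in HT55 itraconazole. In SW948 DMSO and SW948 itraconazole these sums were 33 to 54 and 79 to 107. COL1A1 alone had 29 to 44 and 75 to 105 counts in those SW948 groups, and 2 to 7 and 7 to 11 in the HT55 groups, control first. The part of these markers in the rise of NOTCH3 was not tested.

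NOTCH2 (chr1:120454176-120643366, minus strand, protein coding) has near-identical NOTCH2NL copies, and reads that align to more than 1 place were not counted, so that its values are uncertain. Its level was 119, 104, 107 and 113 CPM in HT55 DMSO and 175, 221, 126 and 160.0 CPM in HT55 itraconazole, with treated replicate 3 nearest to the controls. The log2 fold change was 0.62 ± 0.14 (SE, adjusted p = 0.00388 in edgeR), and 0.75 without that replicate. In SW948 the level was 126, 150.4, 133 and 149 CPM in controls and 186, 180.0, 174 and 178 CPM in treated libraries. The log2 fold change of 0.33 ± 0.068 there (SE, adjusted p = 0.000531 in edgeR) was -0.0013 on plain library totals (adjusted p = 0.988), so no direction holds under both scalings.

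Levels of different genes can be compared only per length, here as CPM per kilobase of the union of exons in GENCODE. On that scale the 3 receptors summed to 50.1 ± 3.48 in HT55 DMSO, 58.6 ± 7.85 in HT55 itraconazole, 17.3 ± 0.980 in SW948 DMSO and 45.6 ± 3.96 in SW948 itraconazole (SD, n = 4). NOTCH1 made up 80.5% ± 1.16 of this sum in HT55 DMSO and 69.3% ± 5.89 in HT55 itraconazole, and 15.3% ± 1.15 and 18.7% ± 0.444 in the corresponding SW948 groups. The leading receptor transcript was thus NOTCH1 in both HT55 groups, whereas it was NOTCH2 in SW948 DMSO (48.2% ± 2.64) and NOTCH3 in SW948 itraconazole (57.7% ± 2.10). NOTCH3 held 6.28% ± 0.459 of the sum in HT55 DMSO, 12.8% ± 1.91 in HT55 itraconazole and 36.5% ± 1.75 in SW948 DMSO. These shares do not depend on the library scaling, but they do depend on the exon lengths used and on the lost reads of NOTCH2.

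**Figure D2:**
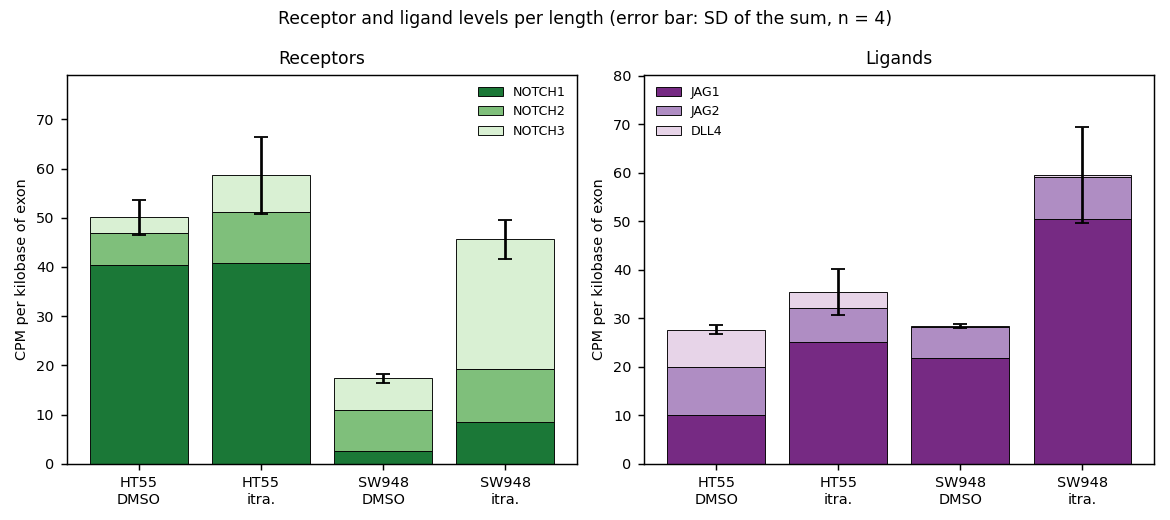
Stacked bars of the mean level of the 3 receptors (left) and 3 ligands (right) in CPM per kilobase of exon on the y axis, for the 4 groups on the x axis, with an error bar of 1 SD of the sum (n = 4). NOTCH1 fills most of the receptor bar in HT55, NOTCH3 most of it in SW948 itraconazole, and DLL4 is visible only in HT55.

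Of the ligands, JAG1 (chr20:10618332-10654647, minus strand, protein coding), which encodes Jagged1, rose in both lines. Its level was 89.8, 89.6, 94.0 and 102 CPM in HT55 DMSO and 238, 258, 159 and 282 CPM in HT55 itraconazole. Treated replicate 3 was again nearest to the controls but still above all of them, and the log2 fold change was 1.31 ± 0.15 (SE, adjusted p = 6.06e-05 in edgeR), or 1.48 without that replicate. In SW948 the controls had 199, 207, 201 and 199 CPM and the treated libraries 375, 537, 557 and 407 CPM. The rise in SW948 was 1.19 ± 0.11 on the log2 scale (SE, adjusted p = 2.57e-07 in edgeR), again with no overlap of the groups. The control level in SW948 lay within the range of treated HT55.

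JAG2 (chr14:105607319-105635161, minus strand, protein coding), the other Jagged ligand, fell in HT55 and not in SW948. It was at 67.5, 60.0, 64.8 and 61.0 CPM in HT55 DMSO and 46.4, 37.03, 52.9 and 42.7 CPM in HT55 itraconazole. All treated libraries lay below all controls, with a log2 fold change of -0.50 ± 0.10 (SE, adjusted p = 0.00234 in edgeR). The SW948 controls had 40.4, 37.3, 45.4 and 43.2 CPM and the treated libraries 56.1, 57.5, 55.0 and 54.1 CPM. All treated SW948 libraries were above the controls (log2 fold change 0.39 ± 0.073, SE, adjusted p = 0.000231 in edgeR), but on plain library totals the difference was 0.057 and did not pass (adjusted p = 0.525).

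DLL4 (chr15:41221538-41231271, plus strand, protein coding) encodes a Delta-like ligand best known from sprouting vessels. In HT55 DMSO it was at 34.9, 35.4, 40.8 and 34.01 CPM, and in HT55 itraconazole at 16.7, 17.8, 14.7 and 12.2 CPM. It fell by 1.24 ± 0.12 on the log2 scale (SE, adjusted p = 2.79e-05 in edgeR), with every treated library below every control, in libraries where the endothelial genes CDH5, VWF, KDR and TEK summed to at most 7 counts. In SW948 only 10, 7, 8 and 14 counts of DLL4 were seen in the controls and 8, 5, 13 and 15 in the treated libraries. The sums were 39 and 41 counts, with no difference found by a two-sided exact permutation test on CPM (p = 0.686, where 0.0286 is the smallest possible with 4 against 4), and a change was not detectable at this depth.

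Together the 3 ligands summed to 27.6 ± 0.963 CPM per kilobase of exon in HT55 DMSO and 28.4 ± 0.429 in SW948 DMSO (SD, n = 4), and to 35.4 ± 4.79 and 59.4 ± 9.90 in the treated groups of those lines. In HT55 DMSO the sum was spread over JAG1 (36.5% ± 2.12), JAG2 (35.9% ± 1.67) and DLL4 (27.6% ± 1.71). In HT55 itraconazole JAG1 took 70.4% ± 7.33 and DLL4 9.27% ± 1.93. JAG1 already made up 76.5% ± 1.74 in SW948 DMSO and was at 84.6% ± 2.46 in SW948 itraconazole, where DLL4 was at 0.431% ± 0.205.

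The targets HES1 and HES4 are shown first with a stretch of their promoters, since both carry a pair of facing matches to the letters for which RBPJ is known. The motif searched was GTGNGAA on either strand (TTCNCAC when read on the other strand), in the RefSeq table of promoters on GRCh38.p14, which gives 250 bases before and 50 after each start of transcription. The stretches below run 5′ to 3′ on the strand of the gene and were placed on GRCh37 by exact match, at chr3:193853832-193853881 (plus strand) for HES1 and chr1:935525-935574 (minus strand) for HES4. Capitals mark the 2 matches, and lower case the bases around them.
HES1: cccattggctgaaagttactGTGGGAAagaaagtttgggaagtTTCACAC
HES4: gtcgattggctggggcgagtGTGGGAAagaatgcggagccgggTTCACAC
In HES1 the matches began 85 and 62 bases before the start, and in HES4 77 and 54 bases before it, with 16 bases between them in both. Aligned without gaps, 27 of the 50 bases were the same, and of the stretch of HES4 28 bases lie inside its GENCODE gene record, which begins further upstream than the RefSeq start. A match on either strand was found in 13.8% of the 35116 promoters of the table, a facing pair at any spacing in 0.265%, and the pair with exactly 16 bases between its members in 3 promoters, those of HES1, HES4 and ITIH4. That spacing was read from HES1, so its own presence there is given by the choice. Of the 9 genes with a promoter in the table, NOTCH1, NOTCH2, NOTCH3, JAG1, JAG2, DLL4 and NRARP had no match in the window, which says only that these letters are not in it. Binding of RBPJ was not measured.

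**Figure D3:**
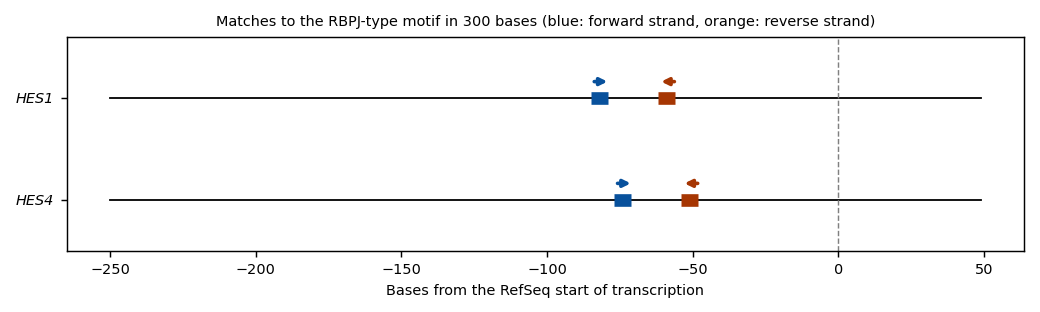
Position of the matches in the 300-base promoters of HES1 and HES4, with bases from the RefSeq start of transcription on the x axis, the genes on the y axis, and arrows for the strand (blue forward, orange reverse). Each gene has 1 forward and 1 reverse match, facing each other, between 85 and 48 bases before the start.

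HES1 (chr3:193853937-193856521, plus strand, protein coding), a repressor of secretory fate genes, had the steepest change of the 10 genes in HT55. Its level was 23.7, 26.2, 25.0 and 23.8 CPM in HT55 DMSO and 76.8, 119.6, 45.3 and 83.05 CPM in HT55 itraconazole. The treated libraries were spread widely, with replicate 3 lowest, yet all lay above the controls, and the log2 fold change was 1.71 ± 0.23 (SE, adjusted p = 0.000204 in edgeR), or 1.92 without replicate 3. In SW948 the controls were tightly placed at 76.1, 76.9, 72.7 and 72.7 CPM, and the treated libraries had 70.9, 129, 141 and 101 CPM. Treated replicate 1 lay below all 4 controls, so the groups overlapped, and the log2 fold change of 0.53 ± 0.16 (SE, adjusted p = 0.00631 in edgeR) was 0.19 on plain library totals and did not pass there (adjusted p = 0.224). Leaving out 1 SW948 library gave 0.39 to 0.71 (adjusted p = 2.32e-06 to 0.0216 in edgeR), with the highest value without treated replicate 1.

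HES4 (chr1:934342-935552, minus strand, protein coding) belongs to the same repressor family and rose more steeply in SW948 than in HT55. In HT55 DMSO it was at 8.005, 7.92, 8.06 and 6.40 CPM and in HT55 itraconazole at 14.001, 10.3, 8.65 and 9.31 CPM. The treated libraries were all above the controls, the closest by little, and the log2 fold change of 0.46 ± 0.17 (SE) passed narrowly (edgeR adjusted p = 0.0384). That call was lost when any 1 of the 4 HT55 controls, or treated replicate 1 or 2, was left out (log2 fold change 0.30 to 0.50, adjusted p = 0.0514 to 0.107), and on plain library totals (0.30, adjusted p = 0.149). The SW948 controls had 6.17, 5.86, 8.50 and 5.16 CPM and the treated libraries 18.9, 27.6, 31.5 and 19.4 CPM. Here every treated library was well above the controls, a log2 fold change of 1.88 ± 0.19 (SE, adjusted p = 5.42e-07 in edgeR).

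NRARP (chr9:140194083-140196723, minus strand, protein coding), whose product binds the nuclear complex and dampens it, did not follow HES1 and HES4. Its level was 48.7, 50.3, 49.4 and 47.7 CPM in HT55 DMSO and 48.5, 66.5, 29.4 and 50.8 CPM in HT55 itraconazole. The treated libraries spread to both sides of the narrow range of the controls, with replicate 2 highest and replicate 3 lowest, and the log2 fold change was -0.02 ± 0.19 (SE, adjusted p = 0.946 in edgeR). Without treated replicate 3 it was 0.18 (adjusted p = 0.115). In SW948 the level was 53.5, 56.1, 52.6 and 50.6 CPM in controls and 34.3, 36.9, 40.3 and 33.3 CPM in treated libraries. All treated SW948 libraries lay below the controls, and NRARP fell by 0.59 ± 0.078 on the log2 scale (SE, adjusted p = 7.94e-06 in edgeR).

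HEY1 (chromosome 8, minus strand, protein coding), a repressor of the related HEY family, was barely expressed. HT55 DMSO had 4, 21, 17 and 19 counts and HT55 itraconazole 10, 12, 11 and 5. The log2 fold change was -0.63 ± 0.44 (SE, adjusted p = 0.245 in edgeR), and it did pass without HT55 DMSO replicate 1, the lowest control (-0.93, adjusted p = 0.0293). SW948 DMSO had 13, 7, 4 and 5 counts and SW948 itraconazole 1, 6, 7 and 8, a difference that a two-sided exact permutation test did not resolve (p = 0.629).

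The next question was whether the lines answered differently, which was tested directly as the interaction of line and treatment on all 16 libraries. The response differed for 7 of the 10 genes, beside 53.9% of the 13249 genes tested. Relative to HT55, the log2 fold change in SW948 was higher by 1.66 ± 0.17 for NOTCH1 (SE, adjusted p = 2.82e-07 in edgeR), by 1.45 ± 0.28 for HES4 (adjusted p = 0.000215), by 0.92 ± 0.13 for JAG2 (adjusted p = 8.22e-06) and by 0.79 ± 0.18 for NOTCH3 (adjusted p = 0.000919). For HES1 it was lower, at -1.15 ± 0.30 (adjusted p = 0.00320). HES1 thus rose more in HT55 and HES4 more in SW948. DLL4 was too low for the test within SW948 (39 and 41 counts) and entered the 16-library fit through its counts in HT55. The value for DLL4 draws on its fall in HT55 (-1.24) and on these low counts in SW948, where a change was not detectable. The difference was 1.77 ± 0.36 (adjusted p = 0.000400). That for NRARP was -0.54 ± 0.21 (adjusted p = 0.0361), and it was lost in 10 of the 16 fits without 1 library (-0.55 to -0.36, adjusted p = 0.0512 to 0.0882); these left out HT55 DMSO replicate 1, 3 or 4, HT55 itraconazole replicate 2 or 4, SW948 DMSO replicate 1 or 2, or SW948 itraconazole replicate 1, 2 or 4.

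No difference of response was resolved for JAG1 (-0.10 ± 0.20, SE, adjusted p = 0.683 in edgeR), NOTCH2 (-0.26 ± 0.16, adjusted p = 0.182) or HEY1 (0.70 ± 0.73, adjusted p = 0.434). For NOTCH2 the difference did pass without HT55 itraconazole replicate 3 (-0.39, adjusted p = 0.00988) and on plain library totals (-0.44, adjusted p = 0.0151). A p above the threshold does not show that the responses were alike.

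**Figure D4:**
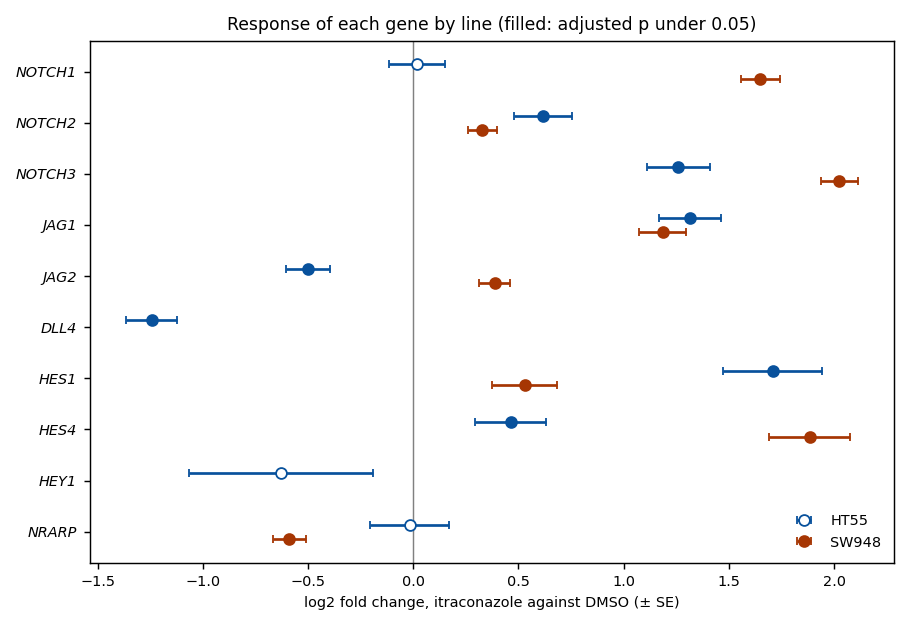
The log2 fold change of itraconazole against DMSO on the x axis for each gene on the y axis, in HT55 (blue) and SW948 (brown), with an error bar of 1 SE and filled points for an edgeR adjusted p under 0.05. JAG1 stands at 1.31 and 1.19, NOTCH1 and HES4 are further right in SW948, HES1 is further right in HT55, and JAG2 lies on opposite sides of 0, though near 0 (0.057) in SW948 on plain library totals; the SW948 points of NOTCH2 (-0.0013), JAG2 and HES1 did not pass there.

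The lines were also compared within each treatment. Between the controls, 8 of the 10 genes differed, beside 75.9% of the genes tested (38.2% higher in SW948 and 37.7% lower). NOTCH1 was 15.2-fold lower in SW948 DMSO than in HT55 DMSO (log2 difference -3.92 ± 0.13, SE, adjusted p = 2.00e-15 in edgeR). JAG2 (-0.61, adjusted p = 4.77e-06) and HEY1 (-1.42, adjusted p = 0.00904) were lower by less. DLL4 had 39 counts in SW948 DMSO and 1339 in HT55 DMSO (log2 difference -5.45 ± 0.20). It was too low for the test within SW948 and entered this fit through its counts in HT55. Its call among the 8 genes and the size of its difference are to be read with that limit. HES1 was higher in SW948, by 1.59 ± 0.22 on the log2 scale (adjusted p = 1.95e-06), as were JAG1 (1.11, adjusted p = 6.45e-07), NOTCH3 (1.01, adjusted p = 7.34e-07) and NOTCH2 (0.34, adjusted p = 0.0123). HES4 (-0.25, adjusted p = 0.283) and NRARP (0.12, adjusted p = 0.477) did not pass. The difference in HEY1 rested on 61 counts in HT55 DMSO and 29 in SW948 DMSO, and HEY1 was too low for the test within SW948.

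Between the treated groups 7 of the 10 genes differed, beside 80.9% of the genes tested. The gap in NOTCH1 was smaller, at 4.804-fold lower in SW948 itraconazole (log2 difference -2.26 ± 0.12, SE, adjusted p = 2.00e-12 in edgeR). DLL4 had 41 counts in SW948 itraconazole and 545 in HT55 itraconazole, and its call here has the same limit as between the controls. NOTCH3 (1.81), HES4 (1.20) and JAG1 (1.004) were higher in SW948 itraconazole, with adjusted p = 5.64e-11, 5.99e-06 and 1.42e-06, as was JAG2 (0.31, adjusted p = 0.00424), and NRARP was lower (-0.43, adjusted p = 0.0150). The difference in NRARP did not pass without HT55 itraconazole replicate 2 (-0.23, adjusted p = 0.103). For HES1 the difference of 0.45 did not pass (adjusted p = 0.0526), but it did without HT55 itraconazole replicate 2 (0.70, adjusted p = 0.00170) or SW948 itraconazole replicate 1 (0.62, adjusted p = 0.00636), and with the Wald test of DESeq2 (0.47, adjusted p = 0.0381). NOTCH2 (0.08, adjusted p = 0.546) and HEY1 (-0.72, adjusted p = 0.219) did not pass, and NOTCH2 did without HT55 itraconazole replicate 2 (0.23, adjusted p = 0.0284).

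Ranked over the 4 groups, SW948 itraconazole had the highest mean CPM for NOTCH2, NOTCH3, JAG1, HES1 and HES4, HT55 DMSO for JAG2, DLL4 and HEY1, HT55 itraconazole for NOTCH1 and SW948 DMSO for NRARP. HT55 itraconazole came next to SW948 DMSO in this order for NOTCH2, NOTCH3, JAG1, JAG2 and HES1, and for each of these 5 genes the ranges of those neighbouring groups overlapped. The ranges of the first and second groups overlapped for NOTCH1, NOTCH2, HES1 and HEY1.

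Other genes of the pathway were taken from 7 lists by function, 54 genes in all. Of the 40 tested in HT55, 27 changed, 17 upwards and 10 downwards, and of the 41 tested in SW948, 34 changed, 24 upwards and 10 downwards. Over all genes tested 54.0% changed in HT55 (27.5% upwards) and 80.2% in SW948 (38.9% upwards), and the counts of each list below are to be read against these shares, which the share of pathway genes that changed in SW948 lies near. Without treated replicate 3 the HT55 count was 33, of which 21 rose. On plain library totals HT55 had 14 rises and 12 falls, while in SW948 the balance turned, with 12 that rose and 16 that fell.

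**Figure D5:**
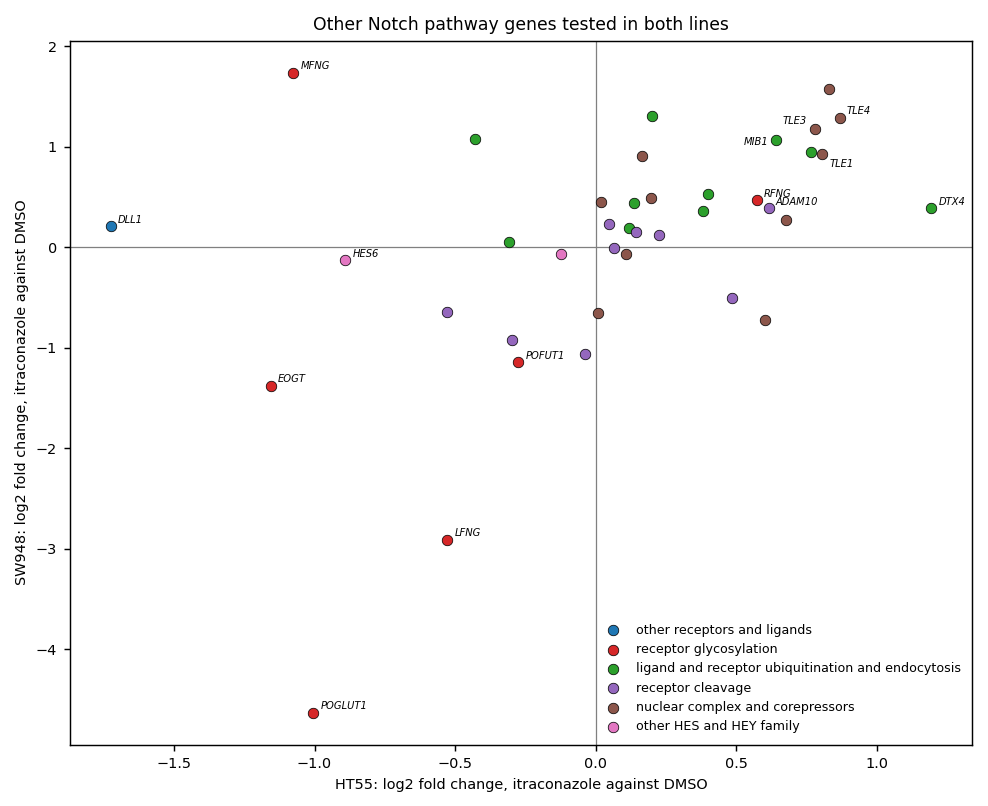
The log2 fold change in SW948 (y axis) against that in HT55 (x axis) for other pathway genes tested in both lines, 1 point per gene, coloured by list. POGLUT1 and LFNG lie lowest, MFNG lies at the upper left, and the corepressor genes TLE1, TLE3 and TLE4 lie at the upper right.

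Most enzymes that add sugars to the receptor fell. All 6 changed in both lines, beside the 54.0% and 80.2% of all genes, with 1 rise and 5 falls in HT55 and 2 rises and 4 falls in SW948, where RFNG was at 0.13 on plain library totals (adjusted p = 0.185, not passed). POGLUT1, which adds glucose to EGF repeats of Notch, was at 37.5, 34.3, 32.0 and 36.8 CPM in SW948 DMSO and at 2.50, 0.902, 0.890 and 1.24 CPM in SW948 itraconazole. That was a log2 fold change of -4.63 ± 0.19 (SE, adjusted p = 1.37e-10 in edgeR), steeper than any among the 10 genes. In HT55, POGLUT1 was at 26.3, 25.4, 27.99 and 28.3 CPM in controls and 11.03, 7.43, 22.2 and 12.5 CPM in treated libraries, with replicate 3 nearest to the controls (log2 fold change -1.005, adjusted p = 0.00707, or -1.38 without replicate 3).

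The Fringe genes, whose products lengthen the fucose added by POFUT1 and so tune which ligand a receptor answers, went different ways. LFNG fell in both lines, and its log2 fold change was -0.53 in HT55 (edgeR adjusted p = 0.0174) and -2.91 in SW948 (adjusted p = 1.14e-08), where its level went from 10.96 ± 0.341 to 1.49 ± 0.556 CPM (SD, n = 4). MFNG, at low levels, fell in HT55 from 4.57 ± 0.489 to 2.17 ± 0.359 CPM (SD, n = 4; -1.08, adjusted p = 0.000833) and rose in SW948 from 1.003 ± 0.218 to 3.45 ± 0.714 CPM (1.74, adjusted p = 1.23e-05), and the difference of the responses was 2.84 (adjusted p = 3.45e-07). EOGT, which adds another sugar to EGF repeats, fell in both lines (-1.16, adjusted p = 0.00180 in HT55 and -1.38, adjusted p = 1.99e-07 in SW948). POFUT1 itself fell by 0.27 in HT55 (adjusted p = 0.0499) and by 1.14 in SW948 (adjusted p = 3.73e-07).

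Of 11 nuclear partners and corepressors tested in HT55, 7 rose and none fell, beside 27.5% of all genes that rose, and on plain library totals 6 rose and none fell. Of 12 tested in SW948, 9 rose and 2 fell, beside 38.9% of all genes that rose and 41.3% that fell. The 2 that fell were the Mastermind-like genes MAML2 (-0.66) and MAML3 (-0.73). Exons of MAML3 overlap those of MGST2 on the opposite strand, so its value is uncertain. On plain library totals 6 rose and 3 fell in SW948. TLE4, a Groucho-type corepressor that HES proteins recruit, rose by 0.87 on the log2 scale in HT55 (edgeR adjusted p = 0.00137) and by 1.29 in SW948 (adjusted p = 1.11e-06). Its relative TLE2 rose by 2.36 in SW948 (adjusted p = 2.88e-07), from 1.71 ± 0.577 to 8.96 ± 1.69 CPM (SD, n = 4). In HT55 TLE2 was too low for the test of that line, with 36 counts in the control libraries together and 13 in the treated ones. The difference of the responses, SW948 minus HT55, was 3.77 (adjusted p = 3.22e-06 in edgeR). TLE2 entered that fit through its counts in SW948. The value draws on the rise there and on the low counts in HT55 (0.967 ± 0.269 and 0.370 ± 0.155 CPM, control first, SD). Whether TLE2 changed in HT55 was not tested. RBPJ had log2 fold changes of 0.20 in HT55 (adjusted p = 0.0485) and 0.49 in SW948 (adjusted p = 7.53e-05), and on plain library totals neither was past the threshold (0.03, adjusted p = 0.753 and 0.16, adjusted p = 0.150).

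Genes for ubiquitination and endocytosis of ligand or receptor rose in 6 and fell in 1 of 10 tested in HT55, beside 27.5% and 26.5% of all genes, and on plain library totals 5 rose and 2 fell (NUMBL and FBXW7). In SW948 10 of 11 rose, beside 38.9% of all genes, and on plain library totals 5 rose and 1 fell. DTX4, a ubiquitin ligase of the Deltex family, rose in HT55 from 79.1 ± 4.55 to 182 ± 18.2 CPM (SD, n = 4; log2 fold change 1.19 ± 0.080, SE, adjusted p = 4.09e-06 in edgeR), and MIB1, the ligase that readies ligands for endocytosis, rose in both lines (0.64 and 1.07, adjusted p = 0.000790 and 2.02e-08). For receptor cleavage, HT55 had 3 rises and 1 fall among 9 genes, and on plain library totals 2 rises (FURIN and ADAM10) and 2 falls (APH1B and PSENEN). SW948 had 3 rises and 4 falls, and on plain library totals 6 fell and none rose. Neither line's count exceeded the share over all genes, 54.0% and 80.2%. ADAM10, the protease of the first cut, had values of 0.62 in HT55 and 0.39 in SW948 (adjusted p = 0.000166 and 4.00e-05), the latter 0.058 on plain library totals (adjusted p = 0.377).

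Of the other receptors and ligands, NOTCH4 had 4 to 26 counts per group and DLK1 had 0 in all libraries. DLL1, the only one tested, fell in HT55 from 3.29 ± 0.757 to 1.01 ± 0.446 CPM (SD, n = 4; log2 fold change -1.72 ± 0.30, SE, adjusted p = 0.000893 in edgeR), but its exons overlap those of FAM120B on the opposite strand, and the strand setting of the counting is not given in the sources used here, so this value is uncertain. In SW948 DLL1 was at 3.78 ± 0.624 and 4.39 ± 1.15 CPM (0.21, adjusted p = 0.356, not passed), and the difference of the responses was 1.96 (adjusted p = 0.000223). Of the other HES and HEY genes tested, 2 of 3 fell in HT55, HES6 (-0.89, adjusted p = 0.000293) and HEYL (-1.24, adjusted p = 0.0138, with 64 counts in the control libraries together and 26 in the treated ones), beside 26.5% of all genes that fell. Neither of the 2 tested passed in SW948, although on plain library totals both were past the threshold as falls, HES2 (-0.39, adjusted p = 0.0369) and HES6 (-0.46, adjusted p = 0.0438), where the median of all genes moved by -0.33. HES5 had at most 3 counts in any library. The secretory lineage genes ATOH1 and NEUROG3, which HES1 is known to repress, had at most 1 count in any library of either line, so no change in them could be seen.

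The genes most like NOTCH1, JAG1 and HES1 in pattern were sought among 9241 genes, by the root mean square difference of log2 CPM centred on the mean of the 16 libraries. ANKRD40CL (0.339) and LRP1 (0.372) were among the nearest to NOTCH1, beside a range of 4.44 for NOTCH1 itself. LRP1 was at 455 and 771 CPM in the HT55 groups and at 37.5 and 88.0 CPM in the SW948 groups, control first. Nearest to JAG1 were IFNLR1 (0.155), SH3RF1 (0.181) and DDR1 (0.186), and nearest to HES1 were MTUS1 (0.252), HIVEP2 (0.261) and again SH3RF1 (0.297). SH3RF1 was at 19.9, 46.4, 40.1 and 83.4 CPM in HT55 DMSO, HT55 itraconazole, SW948 DMSO and SW948 itraconazole. The points of this comparison share their libraries and come in 4 groups, and it is a description only.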

How the data were processed

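Single-end RNA sequencing reads of 50 bp from 16 libraries were aligned to hg19 and counted per gene, and the authors deposited raw counts for each library, with no normalization. The submitters' processing notes name TopHat, HTSeq and DESeq without versions or settings. The 5 closing totals of each file, for reads outside genes (28.2% to 32.9% of all reads), were left out. Groups came from the labels. The genes and lists were chosen with earlier results of these data known. Of the 10 genes all are named; of the 54 others, the 3 with the largest rise and the 3 with the largest fall among those called in each line; for likeness, the 3 nearest genes whose mean log2 CPM was 3 or more, after adding 0.25 CPM. Of these, 2 genes are not reported here. MIB1, NUMBL, FBXW7, ADAM10, FURIN, APH1B, PSENEN, RBPJ, MAML2, MAML3, POFUT1, RFNG, HES2, HES6 and genes given as low counts were added after their values were seen.

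Counts were tested with edgeR 4.0.16 in R 4.3.3 (TMM, filterByExpr, quasi-likelihood F test, Benjamini-Hochberg adjustment over all genes tested). Each line was fitted on its 8 libraries, and the interaction and the comparisons of lines on all 16. The procedure was tested on simulated counts with 200 genes changed, evenly up and down. Far more genes changed in these data, so that test does not cover the choice of library scaling. CPM used TMM factors over 16 libraries (0.868 to 1.18); genes below the filter were compared on plain CPM by an exact permutation test (two-sided, 70 assignments). Symbols and coordinates came from GENCODE lifted to GRCh37; 47098 identifiers (97.8% of counts) had a symbol. JAG1, JAG2 and NRARP overlap long noncoding RNAs in their exons, and the strand setting is not given in the sources used here. RFNG, MAML3 and PSENEN overlap other protein-coding genes in their exons, so their values are uncertain as well. No 2 libraries were duplicates. At this depth 3 counts are about the least that can be told from 0, and reads without molecular identifiers are not independent molecules.

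Alternatives were DESeq2 1.42.0 (size factors and Wald test), plain library totals, no filter, an adjusted p under 0.01, a minimum of 10 counts in each library, 1 fit on 16 libraries, a replicate block and leaving out each library. Levels, likeness and list directions on plain totals, and lists without HT55 itraconazole replicate 3, were added after the data were seen.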

Additional observations from a re-analysis of the deposited data

Results flagged for a closer look

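Over the 10 genes and 4 groups, 40 sets of 4 libraries were searched for an extreme one, using Dixon's ratio of its gap from the nearest value to the whole range. Chance flags about 1 in 20 such sets, which is the number seen, since 2 passed. HT55 DMSO replicate 4 had the low value of HES4 (6.40 CPM against 7.92 to 8.06, share 0.915), and SW948 itraconazole replicate 1 had the low value of HEY1 (1 count against 6 to 8, share 0.838).

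Responses that differed between the lines, by the test of the interaction in edgeR, were those of NOTCH1 (1.66 on the log2 scale, SW948 minus HT55), NOTCH3 (0.79), JAG2 (0.92), DLL4 (1.77), HES1 (-1.15), HES4 (1.45) and NRARP (-0.54). The value of DLL4 draws on its fall in HT55 and on low counts in SW948, where it was too low for the test (39 and 41 counts). JAG2 is the one whose 4 treated libraries lay below the controls in HT55 and above them in SW948, in TMM-scaled CPM.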

How the results depend on the processing

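Plain library totals moved the median of all genes by -0.17 (HT55), -0.33 (SW948), -0.19 (interaction) and 0.20 (controls of the lines) on the log2 scale, and the share of higher calls from 51.0% to 32.6%, 48.5% to 31.5%, 46.1% to 31.8% and 50.3% to 61.0%. On them 5 of the 8 tested genes were called in SW948, and of the other pathway genes there 12 rose and 16 fell; NOTCH1 in HT55 was -0.14 and NOTCH2 in SW948 -0.0013. Taken relative to the shift, these were 0.03 and 0.33.

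Whether replicate numbers pair the libraries was not settled by the check made, which with 4 libraries per group cannot exclude it. Same-numbered deviations correlated at -0.045 to 0.145 in HT55 and 0.0023 to 0.134 in SW948. Their means were 0.032 and 0.057, against -0.011 and -0.018 for other numbers. In HT55 and SW948, 2 and 3 of 8 libraries correlated best with their own number. With the replicate block 6300, 9973, 7155, 10075 and 10728 genes were called (HT55, SW948, interaction, controls, treated), with 7, 8, 7, 8 and 8 of the 10 genes. NOTCH1 in HT55 was -0.0039, and HES1 between treated groups passed (0.46, adjusted p = 0.0368).

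Leaving out 1 library gave 5560 to 7911, 9686 to 10294, 6762 to 7450, 9778 to 10507 and 10528 to 10837 genes, and 6 to 7, 8 to 8, 6 to 8, 8 to 8 and 7 to 8 of the 10. NOTCH1 in HT55 ranged from -0.10 to 0.11 (-0.10 without treated replicate 3, -0.019 without treated 4, -0.013 without control 2 and -0.00026 without control 4). NRARP in HT55 ranged from -0.20 to 0.18 (0.0060 without control 2). NOTCH2 between treated groups ranged from -0.046 (without HT55 itraconazole replicate 3) to 0.23. The CPM difference in SW948 ranged from -0.020 to 0.31 for DLL4 and from -0.22 to 0.053 for HEY1, which was 0.058 on TMM-scaled sizes. Depth limits HEY1 in both lines and DLL4 in SW948.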
